A study of Mus musculus with 12 samples.

Results

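Type II vestibular hair cells of the neonatal mouse utricle were examined among cells of the peeled sensory epithelium. They were chosen by their measured levels of 3 marker genes, Slc52a3, Atoh1 and Rasd2, at least 2 of which had to reach 50 CPM (counts per 1000000 reads of the same cell). The rule took 89 of 632 epithelial cells that passed the quality limits, out of 1007 kept and 1155 deposited cells, which also include a non-epithelial dissection of the utricle. A kept cell had at least 120000 reads, at least 950 detected genes and at most 10% mitochondrial reads.

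Utricles came from FVB and Pou4f3 DTR/+ mice of both sexes at postnatal day 4 (P4) or 6 (P6), and the cell table does not say which strain a cell came from. The Pou4f3 DTR allele carries a toxin receptor at the locus of a hair cell transcription factor, and no toxin was given. Utricles were pooled, the epithelium was loosened with thermolysin and peeled, and live cells were sorted into plates for Smart-seq2, a full-length RNA sequencing method for single cells. The cell table gives the age, dissection and sequencing batch of each cell, but no animal, pool or plate. Epithelial cells of batches 1 to 5 were all P6 and those of batch 6 all P4, so age and batch cannot be told apart. The batch served as the replicate, and the spread between batches may be technical.

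Vestibular hair cells are mechanoreceptors that turn deflection of an apical bundle of stereocilia into transmitter release. Type I hair cells are flask shaped and enclosed by a calyx-shaped afferent ending, whereas type II hair cells are cylindrical and contacted by bouton endings. Atoh1 is the basic helix-loop-helix (bHLH) transcription factor needed to make hair cells, Slc52a3 encodes a riboflavin transporter and Rasd2 a small GTPase. Factors of the bHLH family bind short sites known as E-boxes, of which CAGCTG reads the same on both strands.

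The stretch before a RefSeq start is shown for a pair of genes that were far higher in type II than in type I hair cells. Both hold this E-box there, in capitals, and stretches of genes without it are not shown. The sequences are RefSeq windows of GRCm38.p6, each 250 bases long and written 5′ to 3′ along the strand of the gene. The authors aligned to GRCm38 and named no patch of it. Chrng, the gamma subunit of the nicotinic receptor of fetal muscle, is on the plus strand, and its stretch is chr1:87205561-87205810. Hes6, a bHLH factor raised in differentiating neural and sensory cells, is on the minus strand, and its stretch is chr1:91413223-91413472.
Chrng: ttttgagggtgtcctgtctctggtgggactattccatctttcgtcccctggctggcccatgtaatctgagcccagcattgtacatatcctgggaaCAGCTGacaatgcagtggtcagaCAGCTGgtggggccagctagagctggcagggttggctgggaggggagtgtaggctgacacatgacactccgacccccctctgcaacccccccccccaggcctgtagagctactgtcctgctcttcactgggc
Hes6: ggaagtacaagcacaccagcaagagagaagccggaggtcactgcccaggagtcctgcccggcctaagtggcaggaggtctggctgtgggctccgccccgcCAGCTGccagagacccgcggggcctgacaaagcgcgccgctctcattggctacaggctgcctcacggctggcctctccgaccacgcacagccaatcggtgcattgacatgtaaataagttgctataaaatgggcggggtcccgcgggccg
The E-box began 155 and 132 bases before the RefSeq start of Chrng and 150 bases before this start of Hes6. In the GENCODE vM21 annotation the gene Chrng starts further upstream, at 87204657, so its stretch lies inside that gene model. The gene Hes6 also starts further upstream there, at 91414038 on the minus strand, so its stretch lies inside its gene model too. Another annotated start of Hes6 has the E-box 171 bases upstream, and Dll3 has it 7 bases before its RefSeq start. The window of Nhlh1, a bHLH gene that was searched too, lacks it. Of all 32851 windows of the table, which also hold the 50 bases after the start, 5355 (16.301%) hold CAGCTG. Of the 10 leading genes, most of which are given below, 5 were in the table (Gal, Atoh1, Chrng, Begain and Rasd2) and Chrng alone of these holds it. These matches describe the sequence only.

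The levels of the genes that chose the cells are given as a description, since the rule itself requires 2 of them in each cell. All 3 reached 50 CPM in 70 of 89 cells (78.65%), Slc52a3 and Rasd2 alone in 10, Slc52a3 and Atoh1 alone in 5, and Atoh1 and Rasd2 alone in 4. The second-highest of the 3 markers sets membership, and its median over the members was 710 CPM. The members nearest the limit stood at 70.03, 73.23 and 79.43 CPM, and the nearest cells outside at 11.75, 3.893 and 2.809 CPM. Of the 543 epithelial cells outside the rule, 539 had this value at 0. Batch means of Slc52a3 (chromosome 2, 151996511 to 152009258, GRCm38, plus strand) were 481, 579, 975, 1346 and 815 CPM in batches 1, 3, 4, 5 and 6. Those of Atoh1 (chromosome 6, 64729125 to 64731245, plus strand) were 435, 683, 859, 836 and 1333 CPM. Those of Rasd2 (chromosome 8, 75213944 to 75224113, plus strand) were 498, 651, 855, 844 and 760.2 CPM. Batch 1 was the lowest for all 3 genes. Batch 2 held 4 members, under the minimum of 5 cells set for a batch mean, and enters no batch mean of type II cells.

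**Figure D1:**
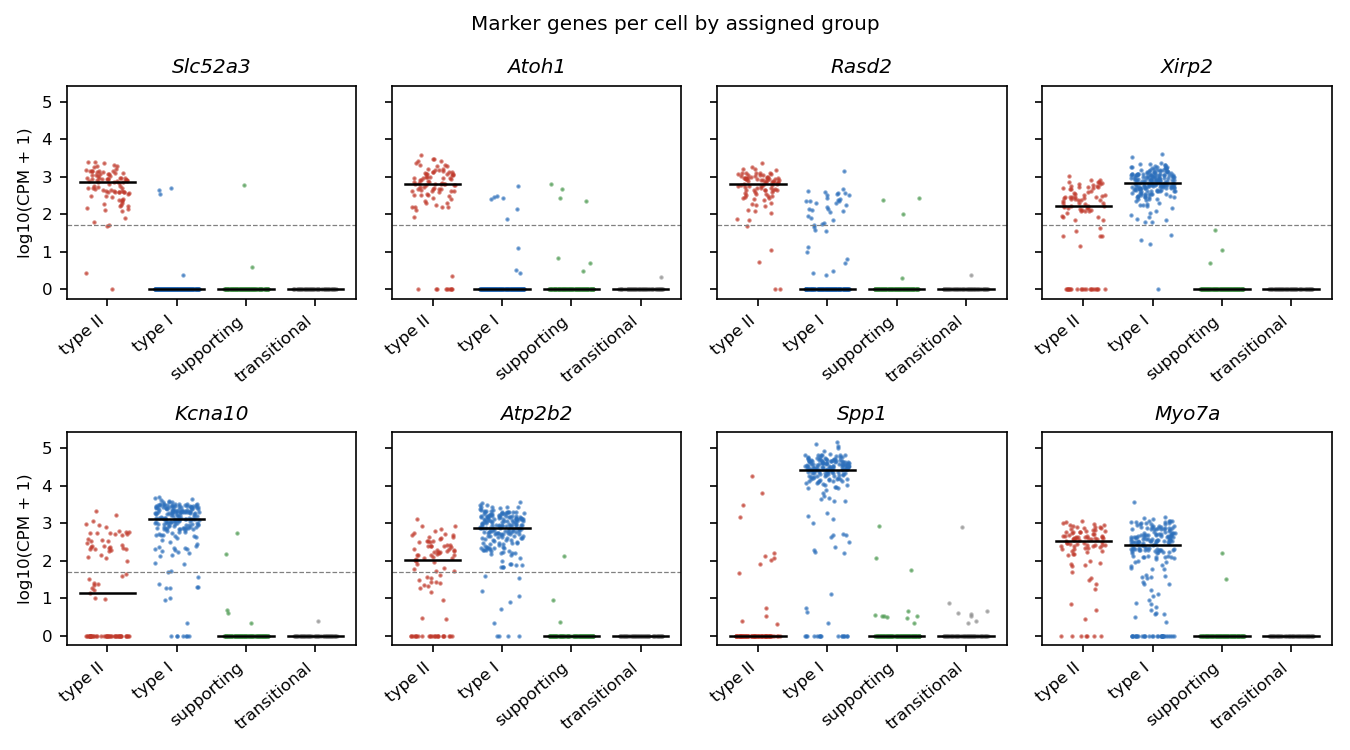
Each point is 1 cell, plotted as log10(CPM + 1) of the named gene for type II, type I, supporting and transitional epithelial cells; black lines are medians over cells and the dashed line marks 50 CPM. Slc52a3, Atoh1 and Rasd2 chose the type II cells, where their medians were 710, 624 and 631 CPM, while Spp1, in no rule, was detected in 14 of 89 type II and 175 of 191 type I cells.

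Type II hair cells were 14.08% of the kept epithelial cells (95% Clopper-Pearson interval 11.46% to 17.04%, counting error only). Batches 1 to 6 gave 23 of 197, 4 of 32, 14 of 83, 13 of 80, 10 of 79 and 25 of 161 cells, or 11.68%, 12.5%, 16.87%, 16.25%, 12.66% and 15.53%. The P4 share, that of batch 6 (10.31% to 22.06%), lay inside the range of the P6 batches. Of the 280 hair cells of either type, 31.79% (26.37% to 37.59%) were type II. This share was 39.68% (27.57% to 52.8%) at P4 and 29.49% (23.51% to 36.04%) at P6. The P4 batch lay above each P6 batch (22.22% to 32.5%), while the intervals over cells overlap.

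Type II cells had 133796 to 1219901 reads with a median of 660321, against a median of 560152 in type I cells. They had the most detected genes of the epithelial groups, with a median of 4488 per cell (2691 to 5812) against 3655 in type I, 2952 in supporting and 2948 in transitional cells. Batch medians of type II cells were 4207, 4390, 4948, 4466 and 4541 genes. Within batches they exceeded type I cells by 897.2 ± 150.208 genes (SD, n = 5 batches, 697.5 to 1080), with the same sign in each batch. With every cell thinned to 120000 reads the difference was 800.1 ± 116.925 genes (634 to 915). The median mitochondrial share was 1.662% in type II and 2.358% in type I cells.

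The label was checked on genes that the rule did not use. Pou4f3, a transcription factor of all hair cells, was detected in 89 of 89 cells at 1329.9 ± 372 CPM (SD, n = 5 batches), and Myo7a, an unconventional myosin of hair cells, in 82 at 371 ± 61.6 CPM. Of 4 further genes known from type II hair cells, Anxa4, an annexin, was at 680.1, 534, 504, 653 and 798 CPM by batch against 45.0 to 158 CPM in the 6 batches of type I cells. Its groups did not overlap, and the mean within-batch difference was 3.11 ± 0.52 on the log2 scale (n = 5). Calb2, the calcium buffer calretinin, was at 315 ± 78.4 against 151 ± 63.1 CPM, a log2 difference of 0.92 ± 0.59 that missed the fold limit of 2 on that scale. Sox2, a transcription factor shared with supporting cells, was detected in 31 of 89 against 18 of 191 cells and was not called (1.82 ± 1.39, higher in 4 of 5 batches). Mapt, which encodes tau, was in 17 of 89 cells and was not called either (2.09 ± 2.49, higher in 4 of 5 batches). Thus Anxa4 alone of these 4 genes set the cells apart from type I cells by the limits used here.

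Markers of other cells of the utricle were mostly near 0, apart from those of supporting cells. The 3 mesenchymal markers summed to a mean of 0.0649 CPM per type II cell against 15200 CPM in the non-epithelial dissection, and the 3 roof cell markers to 0.0383 CPM. Of 18 markers of vascular, glial, immune and pigment cells, 15 were at 0 in all 89 cells, and the highest sum in a cell was 240.8 CPM. The 3 transitional cell markers summed to a mean of 26.76 CPM against 4243 CPM in transitional cells, and 10 of 89 cells had 1 of them at 50 CPM. The 4 supporting cell markers summed to 158.4 CPM (0 to 600.4 over cells) against 307.1 CPM in type I and 3668 CPM in supporting cells. None of these 4 reached 50 CPM in 25 type II and 45 type I cells. A single one did in 54 and 122 cells, and at least 2 did in 10 and 24. Doublets had been gated by size at the sort and were not called from the data here.

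Many type II cells also expressed the genes that mark type I cells in this tissue, Xirp2, Kcna10 and Atp2b2. At least 2 of these 3 reached 50 CPM in 54 of 89 cells (60.67%, 49.75% to 70.87%), and all 3 in 19. These 54 cells, called double-rule cells from here on, were kept as type II, and the 191 type I cells meet the type I rule without meeting that of type II. In batches 1 to 6 the double-rule share was 65.22%, 75%, 71.43%, 46.15%, 70% and 52%. The summed type I markers averaged 603.9 CPM in type II against 3247 CPM in type I cells. Spp1, the secreted phosphoprotein osteopontin, entered no rule. It reached 1000 CPM in 161 of 191 type I cells, in 4 of 54 double-rule cells and in 0 of the other 35 type II cells, and was at 0 in 16, 42 and 33 of these. Calb1, the calcium buffer calbindin, was at 0 in all 89 type II cells, which allows up to 3.37% of cells with a read and says nothing of cells whose RNA was missed, and was detected in 43 of 191 type I cells.

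**Figure D2:**
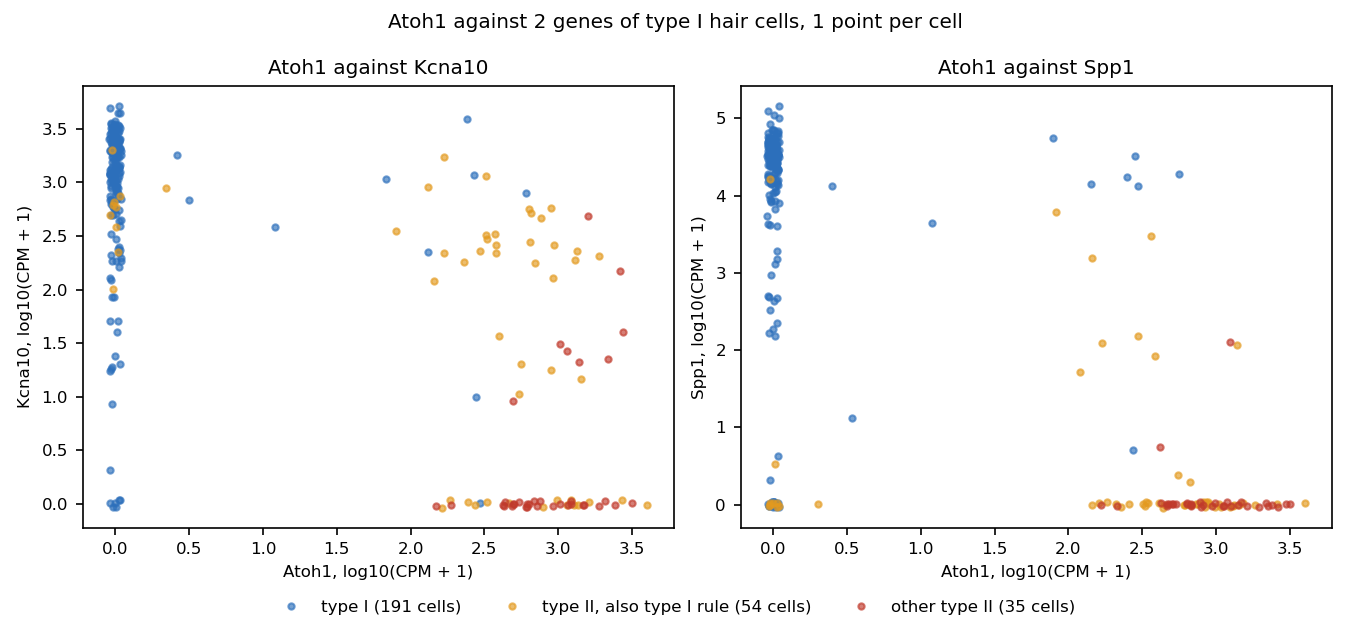
Each point is 1 hair cell; Atoh1 on the x axis is plotted against Kcna10 (left) and Spp1 (right), all as log10(CPM + 1) with a small scatter added so that points at 0 can be seen. Many of the 54 double-rule cells hold both Atoh1 and Kcna10, while 42 of the 54 are at 0 for Spp1.

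Means over cells, pooled over batches, are given by the number of type I markers at 50 CPM. Mean Kcna10, a potassium channel, was 2.82, 31.9, 162 and 574 CPM in the 11, 24, 35 and 19 cells with 0, 1, 2 and 3 markers, as the count requires. Mean Atoh1 was 1028, 1153, 749 and 417 CPM in the same order. P2rx3, an ATP-gated cation channel, averaged 471, 298, 90.9 and 110.1 CPM, and Gal, the neuropeptide galanin, 1321, 683, 510 and 190.4 CPM. Hes6 averaged 399, 373, 209.6 and 195 CPM. All 4 of these means were lower with 2 or 3 markers than with 0 or 1. In the other direction, Slc17a8, the vesicular glutamate transporter of the hair cell synapse, averaged 0.490, 26.8, 62.9 and 140.4 CPM, and Otof, the calcium sensor of hair cell exocytosis, 1416, 1458, 2322 and 3128 CPM. The batches differ in their share of double-rule cells and in Slc17a8, which was lowest in batch 6. Within the batches compared next, none of these genes but Kcna10 was called between double-rule and other type II cells, with log2 differences of -1.73 ± 0.33 for P2rx3, -1.07 ± 0.84 for Gal, -0.88 ± 0.23 for Hes6, 1.64 ± 1.86 for Slc17a8 and 1.11 ± 0.24 for Otof. The type I gene Ocm did not follow, at 0 in all 54 double-rule cells, nor did Calb1, at 0 in every type II cell.

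In the 3 batches with at least 5 cells of both kinds (1, 4 and 6), double-rule cells were compared with the other type II cells. A gene was called when the mean within-batch log2 difference was at least 2 in size with the same sign in each batch. Of 11122 genes tested, 439 (3.95%) were higher and 372 (3.34%) lower in double-rule cells. Leaving out 1 batch gave 654 to 857 and 607 to 835, with the sign then required in fewer batches. Of these, 43.13% to 49.24% of the higher genes were among the 439 and 39.52% to 43.57% of the lower among the 372. Adding 10 CPM in place of 1 gave 49 and 32. Of 18 named genes called, 2 (Kcna10 and Dll3) kept the call in all 10 other settings, and Kcna10 is a gene of the rule that chose the double-rule cells. None of the 3 type II markers was called, with log2 differences of -0.60 ± 0.32 for Slc52a3, -0.99 ± 0.48 for Atoh1 and -0.27 ± 0.12 for Rasd2 (SD, n = 3 batches). Outside the rules, Fscn2, an actin crosslinker of stereocilia, was higher at 199 against 42.8 CPM (2.32 ± 0.79), as was Tgfb3, a transforming growth factor, at 36.6 against 1.73 CPM (3.71 ± 0.15). Ptprz1, a receptor of pleiotrophin, was at 218 against 45.2 CPM (3.81 ± 3.81), a difference whose spread was as large as its mean. Dll3, a Notch ligand of the cell interior, was lower, at 19.2 against 208 CPM (-3.34 ± 1.44). Mcm2, a replication licensing factor, was lower at 6.36 against 59.2 CPM (-3.32 ± 3.28), as was Sox4, a factor of immature cells, at 9.76 against 43.6 CPM (-2.83 ± 2.44).

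Correlations over the 89 cells are given as a description, since the levels of Slc52a3, Atoh1 and Rasd2 chose these cells. Spearman's rho was 0.42 between Slc52a3 and Atoh1, 0.44 between Slc52a3 and Rasd2 and 0.39 between Atoh1 and Rasd2. The cells share batches, of which batch 1 was lowest for all 3 genes, and rho with the total reads of a cell was 0.18, 0.18 and 0.21 for Slc52a3, Atoh1 and Rasd2. Among the genes most like Atoh1 of those in 25% of the cells were Selenom (0.57) and the ribosomal Rps26-ps1 (0.56), and the least like it were Calm2 (-0.55), Malat1 (-0.54) and Acbd7 (-0.51). Rps26-ps1 is a processed copy of a ribosomal gene, so its reads may belong to the parent. Hes6 stood at 0.53, Kcna10 at -0.41 and Slc17a8 at -0.51 with Atoh1. Correlations were not taken within batches, and the P4 batch had the highest batch means of Atoh1 and Hes6 and the lowest of Slc17a8. The part of batch in these values was not tested. Slc52a3 was most like Ccer2 (0.52) and Zfp444 (0.44), after which came Rasd2, and least like Golgb1 (-0.47), Kcna10 (-0.44) and Atp6v1g1 (-0.41). Rasd2 was most like Cdkn1c (0.45) and Fcho1 (0.44), besides Slc52a3, and least like Malat1 (-0.43), Skp1a (-0.40) and Sub1 (-0.38).

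The leading genes of the type II cells were those with the largest log2 ratio of their mean over cells to the highest mean among type I, supporting, transitional and non-epithelial cells, among genes in 50% of the type II cells. Among the 10 with the largest ratio were, in order, Slc52a3 (6.64), P2rx3 (6.35), Atoh1 (6.12), Gal (5.91), Sez6 (4.85), Begain (4.31), Tmem173 (4.24), Chrng (4.09) and Rasd2 (4.02). Slc52a3, Atoh1 and Rasd2 are among them because they chose the cells. P2rx3 was at 191, 98.0, 214, 251 and 250.4 CPM by batch in type II cells and detected in 48 of 89, against at most 1.46 CPM in a type I batch and 2 of 191 cells. Gal was at 406, 1001, 1025, 295 and 420.5 CPM and in 53 of 89 cells, against at most 44.1 CPM in a type I batch and 2 of 191 cells. Chrng was at 108, 195, 376, 326 and 389.9 CPM and in 62 of 89 cells, against 7 of 191 type I cells and 0 of 147 supporting cells, which allows up to 2.04% of cells with a read. For these 3 genes the type II batches lay above all batches of type I, supporting and transitional cells. The genes had been chosen by their ratio in these same cells. Tmem173, the DNA sensing adaptor STING, was at 171, 211, 265, 119.8 and 247 CPM by batch. Sez6 and Begain were at 51.9 ± 19.7 and 76.4 ± 46.7 CPM, each with no read in the 147 supporting cells. P2rx3 shares exonic bases with Ssrp1 in the GENCODE vM21 annotation, and Smart-seq2 reads do not carry strand.

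**Figure D3:**
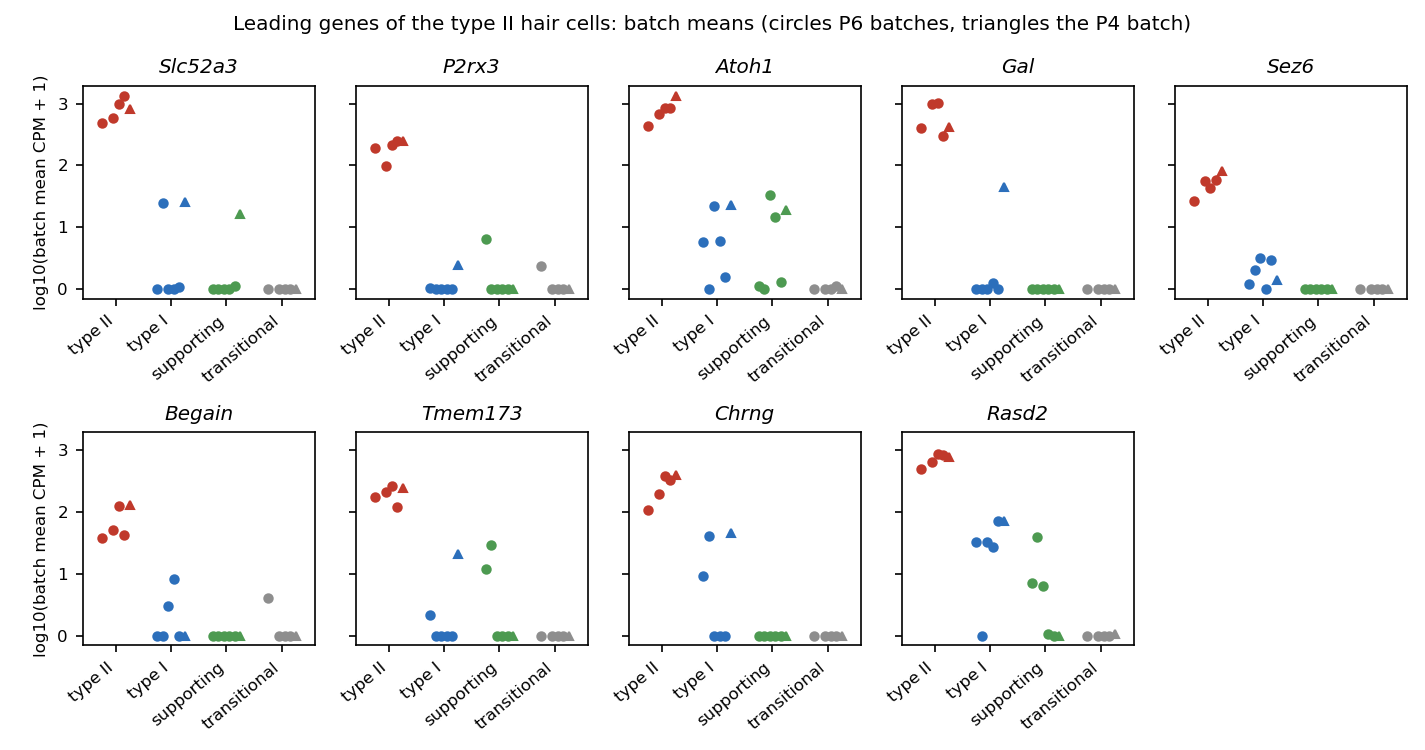
Batch means of 9 of the leading genes as log10(mean CPM + 1) in type II, type I, supporting and transitional epithelial cells; circles are P6 batches, the triangle is the P4 batch, and a batch is shown when it held at least 5 cells of the group. For P2rx3 the 5 type II batches lie between 98.0 and 251 CPM and no type I batch exceeds 1.46 CPM.

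Type II and type I hair cells were compared within the 5 batches with at least 5 cells of each, as the log2 ratio of mean CPM after adding 1 CPM, which understates the change of low genes. With the same limits on size and sign, 453 of 10822 tested genes (4.19%) were higher and 366 (3.38%) lower in type II cells. Without the double-rule cells, which leaves 3 batches, 587 were higher and 923 lower. The 587 held 325 of the 453, and the 923 held 332 of the 366, which made 35.97% of the 923. With 10 CPM added the counts were 161 and 110. A gene was tested when at least 10% of the cells in 1 of the groups had it. The median difference over all tested genes was 0.11, and -0.01 after scaling by median-of-ratios size factors. For the marker genes of both rules the direction is set by how the cells were chosen, and their differences are a description. Levels below are means over 5 batches of type II and 6 batches of type I cells ± SD, and differences are over the 5 shared batches.

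Among genes detected in 50% of the type II cells, those outside the rules with the largest excess were Gal (log2 difference 7.95 ± 2.74), P2rx3 (7.31 ± 0.62), Tmem173 (6.51 ± 1.79), Ly6e (6.42 ± 1.43), Chrng (6.24 ± 2.68), Cdkn1c (6.23 ± 1.07), Cryab (6.13 ± 1.90) and Card10 (5.66 ± 3.12). Cdkn1c, a cyclin-dependent kinase inhibitor, was at 134, 214, 156, 139 and 244 CPM in type II cells and at most 6.97 CPM in a type I batch. Cryab, a small heat shock protein, was at 265, 188, 181, 212 and 314 CPM against 0 to 38.6 CPM. Ly6e, a membrane-anchored protein, was at 159, 150.4, 146, 135 and 179 CPM against 0 to 11 CPM. The type II and type I batches did not overlap for these 3 genes, which were chosen by their large differences in these same cells. Of all 10822 tested genes, 1711 were higher and 1172 lower in type II cells in every shared batch. Card10, a signalling scaffold, varied more, with batch differences from 0.628 to 8.12. Supporting cells held Cryab (183 ± 86.5 CPM) and Ly6e (74.1 ± 45.4 CPM) as well. In the annotation Cryab shares exonic bases with Hspb2 and Cdkn1c with Gm44732.

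Of the genes lower in type II cells, Spp1 had the most negative difference of those with reads in both types. It was at 1048, 0, 111, 12.8 and 144 CPM in type II batches against 18945 to 36041 CPM in type I batches (-9.19 ± 3.90), and the batches did not overlap. Ighm, the constant region of an immunoglobulin heavy chain, was at 0 in all 89 type II cells and at 401 ± 169 CPM in type I cells. Car7 and Car12, carbonic anhydrases, were at 3.99 ± 8.92 against 550.4 ± 209 CPM (-7.98 ± 1.95) and 7.48 ± 9.55 against 309.5 ± 129 CPM (-6.01 ± 1.88). Vwa3a (-5.85 ± 2.67), Dhrs3, a retinaldehyde reductase (-5.16 ± 3.14), Nek2, a centrosomal kinase (-4.49 ± 2.23), Hs6st2, a heparan sulfate sulfotransferase (-4.40 ± 2.73), Lpgat1, a lipid acyltransferase (-4.16 ± 2.57), and Aif1l (-4.11 ± 2.41) followed. Each of the 10 was detected in at most 19.1% of type II cells and in at least 56.0% of type I cells. Spp1 and Dhrs3 were also higher in double-rule than in other type II cells, at 705 against 3.32 CPM and 229 against 0 CPM. Of the 54 double-rule cells, 42 were at 0 for Spp1 and 4 reached 1000 CPM, so its mean rests on few cells.

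Genes of hair cell identity and of the bundle differed in part. Over all tested genes, 4.19% were higher and 3.38% lower in type II cells. Of 11 hair cell genes of both types, 3 were higher in type II cells and none lower, with a median difference of 0.84. These were Pvalb, the calcium buffer parvalbumin (182 ± 65.3 against 46.5 ± 39.03 CPM, 2.67 ± 1.18), Barhl1, a homeobox factor (83.0 ± 34.1 against 19.5 ± 28.2 CPM, 2.88 ± 2.11), and Cib2. Myo7a differed by 0.01 ± 0.10 and Otof by 0.22 ± 0.36, less than its spread. Pou4f3 had a difference of 0.84 ± 0.17 and Gfi1, a zinc finger factor downstream of it, of -1.95 ± 0.28 (97.0 ± 28.9 against 361 ± 41.1 CPM), both under the limit of 2 although each had the same sign in every batch.

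The shares over all tested genes were 4.19% higher and 3.38% lower. In the mechanotransduction machinery, 3 of 14 genes were higher and 1 lower in type II cells, with a median difference of 0.16. Among the higher genes, Pcdh15, a tip link cadherin, was at 236 ± 29.7 against 83.5 ± 66.5 CPM (2.17 ± 0.91), and Cib2, a calcium-binding partner of the transduction channel, at 997 ± 122 against 286 ± 117 CPM (2.06 ± 0.43). Tmc2, the channel subunit of young hair cells, was lower, at 20.2, 12.7, 0, 17.0 and 9.91 CPM against 42.1 to 128 CPM (-3.53 ± 1.46), with no overlap. Tmc1, its mature counterpart, was at 116 ± 21.8 against 154 ± 59.6 CPM (-0.53 ± 0.40). Of 17 genes of stereociliary actin and unconventional myosins, none was higher and 2 were lower. These were Fscn2 (113 ± 29.2 against 462 ± 110.3 CPM, -2.04 ± 0.28) and Strc, which encodes stereocilin (18.9 ± 14.3 against 64.6 ± 21.3 CPM, -2.08 ± 0.84). The call of Cib2 ended under 4 of 15 other settings, that of Pcdh15 under 3, that of Fscn2 under 4 and that of Strc under 5.

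At the ribbon synapse, 2 of 17 tested genes were higher and 2 lower, against 4.19% and 3.38% over all tested genes. Cplx1, a complexin that acts on vesicle fusion, was in 23 of 89 type II and 5 of 191 type I cells (3.98 ± 1.22), and Stx1a, a SNARE protein, in 12 of 89 and 1 of 191 (3.48 ± 1.02). Rimbp2, a scaffold of the active zone, was at 11.6 ± 10.7 against 34.0 ± 23.3 CPM (-2.15 ± 2.25) and Cacna2d4, an accessory calcium channel subunit, at 6.64 ± 10.5 against 35.7 ± 12.6 CPM (-3.36 ± 2.16). Slc17a8 was at 104, 57.8, 95.4, 56.7 and 5.68 CPM against 50.8 to 277 CPM (-1.83 ± 1.56), not called. The call of Rimbp2 ended under 5 and that of Stx1a under 3 of 15 other settings. None of the 4 tested genes of the cholinergic efferent receptor was called. Chrna9 was at 227 ± 47.3 against 253 ± 106 CPM, Chrna10 at 406 ± 101 against 759 ± 256 CPM, and Chrna1, the muscle alpha subunit, at 114 ± 9.09 against 100 ± 49.2 CPM.

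Over all tested genes, 3.38% were lower and 4.19% higher in type II cells. Of 9 tested potassium and HCN channels, 3 were lower in type II cells and none higher. These included Kcna10, which chose the type I cells, and Kcnma1, the large-conductance calcium-activated channel (4.36 ± 3.71 against 111 ± 32.8 CPM, -4.67 ± 1.29). Scn3b, a sodium channel beta subunit and the sole tested gene of its list of 9, was in 3 of 89 against 46 of 191 cells (-4.68 ± 2.04). Of 9 calcium buffers and pumps, Pvalb and S100b (27.8 ± 13.3 against 4.57 ± 8.92 CPM, 3.27 ± 2.14) were higher and Atp2b2, which also chose the type I cells, Ocm and Calb1 lower. Ocm, oncomodulin, was in 2 of 89 type II and 39 of 191 type I cells (-7.42 ± 1.12).

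The Notch ligands Dll3 and Jag2 and the differentiation factors Hes6, Nhlh1 and Barhl1 were higher in type II cells. Notch signalling between neighbouring cells keeps supporting cells from becoming hair cells, and some of its ligands are borne by the hair cells. Of 14 tested genes of the pathway, 4 were higher than in type I cells and none lower, with a median difference of 0.46. Over all tested genes 4.19% were higher and 3.38% lower. Dll3 was at 47.7, 31.9, 177, 126 and 112 CPM against at most 3.29 CPM (5.68 ± 2.0), Mfng, a glycosyltransferase that modifies Notch, at 194 ± 102 against 11.05 ± 11.5 CPM (4.27 ± 2.19), and Jag2, a ligand, at 159.7 ± 37.6 against 33.6 ± 26.4 CPM (2.09 ± 0.92). Hes6 was at 177, 195, 328, 307 and 384 CPM against 15.6 to 33.2 CPM (3.51 ± 0.46). The batches of the groups did not overlap for Dll3 and Hes6. Of 23 tested factors of hair cell and neuronal differentiation, 4 were higher (Barhl1, Nhlh1, Hes6, which is in the Notch list too, and Atoh1, which chose the cells) and none lower, with a median difference of 0.88. Nhlh1, a bHLH factor, was detected in 83 of 89 cells at 111 ± 25.7 against 11.5 ± 10.7 CPM (3.45 ± 1.11). Of 7 tested cell cycle genes, Cdkn1a, a cyclin-dependent kinase inhibitor, was higher at 263 ± 83.2 against 21.8 ± 17.6 CPM (4.19 ± 1.34), as was Mcm2, in 12 of 89 against 4 of 191 cells (3.05 ± 1.78). The call of Jag2 ended under 5 of 15 other settings and that of Mcm2 under 3.

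**Figure D4:**
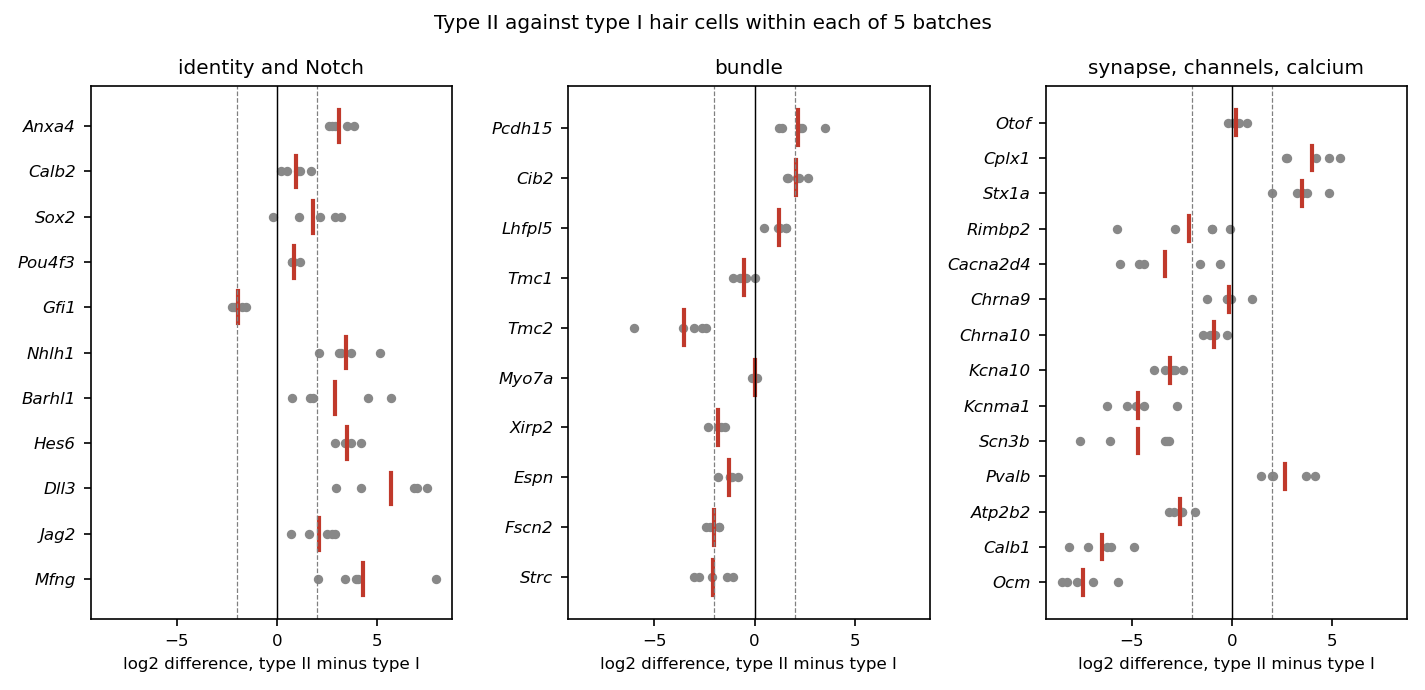
Log2 difference of type II minus type I hair cells for listed genes in 3 panels; grey points are the 5 batches, red bars their means, and dashed lines the limit of 2 in either direction. Hes6 lies above 2 in every batch and Kcna10, Kcnma1, Calb1 and Ocm below -2, while Myo7a and Otof lie around 0.

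Of the other lists, supporting cell genes, pleiotrophin signalling and the response to dissociation differed in part. Over all tested genes 4.19% were higher and 3.38% lower than in type I cells. The 8 tested supporting cell genes had a median difference of -0.53, below 0. Among them Sox9 (84.1 ± 32.7 against 28.2 ± 21.9 CPM, 2.48 ± 2.58) and the glutamate transporter Slc1a3 (46.8 ± 22.3 against 17.8 ± 18.5 CPM, 2.61 ± 1.84) were higher. The call of Sox9 held in 12 and that of Slc1a3 in 13 of 15 other settings. None of the 4 supporting markers was called, and their median difference was -0.39. Ptn, the ligand pleiotrophin, was higher than in type I cells (125 ± 32.5 against 30.2 ± 21.1 CPM, 2.48 ± 1.24), and its receptors Ptprz1 (130.5 ± 77.7 against 909 ± 69.8 CPM, -3.15 ± 1.27) and Sdc4 (371 ± 114 against 1498 ± 199.5 CPM, -2.08 ± 0.47) were lower. Among 10 genes induced by cell dissociation, the immediate early genes Egr1 (773 ± 226 against 173 ± 45.2 CPM, 2.07 ± 0.43) and Ier2 (491 ± 168 against 43.6 ± 21.6 CPM, 3.64 ± 1.49) were higher, and the heat shock genes Hspa1a (-4.08 ± 1.33) and Hspa1b (-4.01 ± 1.61), near-identical copies that can share reads, were lower. The part of dissociation and of supporting cell RNA in the differences between the types was not tested. Of 18 axonemal genes, Cfap46 (-2.04 ± 0.76) and Cfap161 (-2.02 ± 0.50) were lower, and of 8 tested neurotrophins and axon cues, Sema3a (-2.15 ± 2.04) and Cntn1 (-2.36 ± 1.58) were lower, as was Nlgn1, at 0 in all type II cells. The calls of Cfap46 and Cntn1 ended under 5 of 15 other settings and those of Cfap161 and Sema3a under 4, and the axonemal count compares with 3.38% lower over all tested genes. Celsr3 (-3.70 ± 3.06) was the sole called gene of planar polarity and Tgfbr2 (-2.84 ± 1.84) of the TGF-beta pathway, both lower. Stmn1 (3.75 ± 0.99) was the sole called gene of the neurofilaments and microtubule proteins, and Cldn4 (3.16 ± 1.29) of the transitional markers, both higher.

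Against supporting cells, the same limits gave 1465 of 11298 tested genes (13.0%) higher and 1010 (8.94%) lower in type II cells, with a median difference of 0.33 that median-of-ratios scaling moved to 0.12. This comparison uses the same type II cells as the one with type I cells. The largest differences among genes in 50% of the type II cells were those of the following genes. Ccer2 was at 3864 ± 1007 against 39.6 ± 97.0 CPM (11.81 ± 0.47), Otof at 2309 ± 651 against 33.7 ± 77.8 CPM (10.33 ± 1.74), and Tmem255b at 1669 ± 266 against 11.9 ± 24.7 CPM (10.01 ± 1.64). Myo15, the motor that delivers cargo to stereocilia tips (9.82 ± 0.40), Ptprq (9.34 ± 1.93), Cib3 (9.25 ± 1.07), Kcp (9.22 ± 0.69), Lhfpl5, a part of the transduction channel complex (9.20 ± 0.26), and the neurofilament Nefl (9.04 ± 0.28) followed. Gal had no read in the 147 supporting cells. All 11 hair cell genes, 17 of 18 axonemal genes, 14 of 17 genes of stereocilia, 11 of 14 of mechanotransduction and 11 of 15 tested at the synapse were higher.

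The most negative differences from supporting cells, among genes in 50% of those cells, were those of 10 genes. Mia was at 4.29 ± 6.77 against 3652 ± 999 CPM (-10.27 ± 1.36), Anxa2 at 4.06 ± 9.08 against 1488 ± 393 CPM (-9.58 ± 2.10) and Otog, which encodes otogelin of the otoconial membrane, at 79.1 ± 112 against 7224 ± 1712 CPM (-9.18 ± 4.00). Bricd5 (-8.30 ± 1.16), Ndrg2 (-8.24 ± 2.12), Col9a3 (-8.20 ± 0.77), Otol1, otolin (-8.20 ± 2.04), Tecta, alpha-tectorin (-8.15 ± 2.76), Rlbp1 (-8.11 ± 1.65) and Cpxm2 (-8.10 ± 2.26) followed. All 13 tested genes of the supporting cell list were lower. The 4 supporting markers were lower too, but they chose the supporting cells, so their direction is set by that rule and is a description. Ush1c, a bundle scaffold that is also one of these markers, was at 94.7 ± 22.2 against 1329 ± 253 CPM (-3.87 ± 0.20). In the Notch pathway, 5 of 19 tested genes were higher and 6 lower, against 13.0% and 8.94% over all tested genes. The ligands Dll1 (4.42 ± 2.80), Jag2 (4.73 ± 2.40) and Dner (7.75 ± 0.35) and the factor Hes6 (4.26 ± 2.59) were higher, as was Dll3, at 0 in all supporting cells. The receptors Notch1 (-5.34 ± 1.56) and Notch3 (-5.65 ± 1.10), the ligand Jag1 (-5.77 ± 1.81) and the targets Hes1 (-6.76 ± 1.07), Hes5 (-4.78 ± 0.68) and Hey1 (-4.32 ± 1.68) were lower. Ptn was lower than in supporting cells (-2.80 ± 0.38) although higher than in type I cells. Of the 10 dissociation genes, Fos (-2.23 ± 0.56), Fosb (-3.17 ± 0.73), Jun (-4.63 ± 1.00), Atf3 (-5.57 ± 2.96) and Dusp1 (-3.98 ± 0.97) were lower.

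P4 and P6 type II cells were set side by side as the mean of the 25 cells of batch 6 against the mean of the 4 P6 batches with at least 5 cells. A gene was called when the log2 ratio was at least 1 in size and the P4 value lay beyond every P6 batch. Of 11183 tested genes, 1145 (10.2%) were higher and 710 (6.35%) lower at P4. The P4 value is that of a single batch, so these are a description of batch 6 against the others. The 3 markers were not called, at 815 against 845 CPM for Slc52a3 (-0.05), 1333 against 703 CPM for Atoh1 (0.92) and 760.2 against 712 CPM for Rasd2 (0.09). Slc17a8 was at 5.68 CPM at P4 against 56.7 to 104 CPM in the P6 batches (-3.57), while in type I cells it was at 151 against a P6 mean of 153 CPM.

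Among the more widely detected genes, Pde4d, a cAMP phosphodiesterase, was higher at P4 (39.1 against 8.01 CPM, 2.15), as were the lipid transporter Abca3 (139.6 against 35.2 CPM), Rpgrip1, a ciliary protein (65.6 against 16.3 CPM), Wdr89 (1.90), Ankrd49 (1.79), Depdc5 (1.73), Lfng, a Notch glycosyltransferase (48.6 against 15.3 CPM, 1.61), and Ly6h (1.58). Lower at P4 were Ccdc148 (12.7 against 59.6 CPM, -2.15), the vesicle GTPase Rab39b (-2.09), Fundc1 (-1.98), the axonal motor Kif1a (23.3 against 90.2 CPM), Gpr146 (-1.84), Rprd2 (42.5 against 150 CPM), Nbeal1 (38.9 against 137 CPM) and Lbr, the lamin B receptor (33.0 against 117 CPM). Without the double-rule cells, which leaves 2 P6 batches, Fundc1 changed sign (0.68) and Rab39b was no longer called (-0.55). These genes were named for their size of difference among genes present in 50% of the cells of the age where they were higher.

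Of 8 tested supporting cell genes, 4 were higher at P4, against 10.2% of all tested genes, and few cells carried these 4. Tecta was at 92.9 against 1.89 CPM, with 6 of 25 P4 cells at 50 CPM. Otog was at 252 against 36.0 CPM with 82.8% of the P4 sum in 1 cell, and Sparcl1 at 179 against 42.4 CPM with 84.34% in 1 cell. Sox10, the remaining gene, was detected in 3 of 25 P4 cells and reached 50 CPM in none. Tectb was found in 1 P4 cell, at 5850 CPM. Without the 10 cells that had at least 2 supporting markers, an alternative chosen after seeing the data, the difference of Sparcl1 changed sign from 2.05 to -0.59. Without the double-rule cells, which were 52% of the P4 and 64.06% of the P6 type II cells, 2195 genes were higher and 1449 lower at P4. Batches 3 and 5 then fell under 5 cells, so the P4 value had to lie beyond 2 P6 batches in place of 4, and the effect of the cells and that of the fewer batches cannot be told apart.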

How the data were processed

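Per the labels and the paper's methods, the authors aligned Smart-seq2 reads to GRCm38 (mm10) with STAR and deposited RSEM expected counts for 52627 genes in 1155 cells, where 80.5% of nonzero values were whole, together with a table of cell properties. No cells shared a name or identical values. The 12 GEO samples are blocks of cells with no condition of their own, so cells were grouped by the cell table and their markers. Counts were divided by the total of each cell to give CPM in Python 3.11.15 with numpy 2.4.6, pandas 2.3.3 and scipy 1.17.1. CPM is not per length, so levels were not compared between genes.

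A type I cell had at least 2 of Xirp2, Kcna10 and Atp2b2 at 50 CPM and was not type II. Supporting (2 of Ush1c, Dkk3, Nptx1 and Agr3), transitional (2 of Dclk1, Slc26a4 and Cldn4) and roof cells (2 of Enpep, Steap4 and Panx3) met 1 such rule alone. This gave 191 type I, 147 supporting, 99 transitional and 1 roof cell, 66 cells that met more than 1 non-hair-cell rule and 39 that met none. Batches with at least 5 cells of both groups gave the within-batch log2 ratios of mean CPM with 1 CPM added. With batches as the sole replicates and cells no replicates, no p-value was computed. Named genes were those of 29 lists (317 genes, 2 not in the table) and, per direction, the 10 largest called differences (8 for age) among genes in 50% of the cells of the higher group, the 10 leading genes, and the 3 highest and 3 lowest correlations, passing over predicted genes; values of some of these are not reported here. The members and the lists were chosen with earlier results of these data known. The scripts were tested on simulated data. Promoter windows came from RefSeq for GRCm38.p6 and gene coordinates from GENCODE vM21.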

Additional observations from a re-analysis of the deposited data

Results flagged for a closer look

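Of 26 groups of batch differences between type II and type I cells that were examined for a batch far from the others, 5 had one, and chance alone gives such a batch now and then. The lowest batch difference of Slc52a3, a gene of the rule, was 4.987 and the next 8.914. That of Gal was 3.223 with the next at 8.21, and that of Ly6e was 3.909 with the next at 6.589. The highest batch difference of Ighm was -6.927 with the next at -8.494, and that of Car7 was -4.545 with the next at -8.264. The directions of all 5 genes were the same in every batch.

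Of 16 genes compared between the ages in both hair cell types, Rprd2 moved in opposite directions. The log2 difference of P4 minus P6 was -1.797 in type II cells and 0.8701 in type I cells, and the difference between the types was not tested.

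In the non-epithelial dissection, which serves above only as a reference level, 2 of 375 kept cells met the type II rule. The first, of batch 6 and P6, had Slc52a3 at 562.2, Atoh1 at 4.124, Rasd2 at 1091 and Myo7a at 450.8 CPM. The other, of batch 5 and P4, had Slc52a3 at 202.5, Atoh1 at 823.5, Rasd2 at 1423 and Myo7a at 3.32 CPM. The mesenchymal genes Otor and Dcn were at 0 in both.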

How the results depend on the processing

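Requiring all 3 markers gave a share of 11.08% of epithelial cells, and leaving out the double-rule cells 5.538%. Without the double-rule cells, 923 genes were lower than in type I cells, and 2195 were higher and 1449 lower at P4, where batches 3 and 5 also fell under 5 cells, leaving 3 batches against type I cells and 2 of P6. The P4 minus P6 difference then changed sign for Fundc1 (0.6769), Bsn (-1.717), Rimbp2 (-1.28), Notch2 (-1.979), Emx2 (-0.9058), Map1a (0.07823) and Sdc3 (-0.7775), and without cells with 2 supporting markers, a setting chosen after seeing the data, for Sparcl1 (-0.5884). The cause was not tested. Adding 10 CPM in place of 1, which shrinks ratios of low genes, gave 161 higher and 110 lower than type I cells, 726 and 567 than supporting cells, 571 and 431 at P4, and 49 and 32 in double-rule cells. Without the detection filter 2078 genes were higher at P4. Testing genes in 25% of cells, and so fewer genes, gave 291 and 205 against type I cells, 571 lower than supporting cells, 506 and 418 at P4, and 177 and 188 in double-rule cells. Means over all cells in place of batch means gave 174 and 119 for double-rule cells. Leaving out each batch in turn gave 654 to 857 higher and 607 to 835 lower genes in double-rule cells, 453 to 534 and 366 to 453 against type I cells, 1465 to 1628 and 1010 to 1089 against supporting cells, and 1145 to 1421 and 710 to 932 at P4. Batch 2 entered none of these comparisons, so leaving it out repeats the main counts, which are the lower ends of the last 3 comparisons. Leaving out a batch that was used raised each count, with calls then required to hold in fewer batches. Of the named genes called, 37 of 70 held their call against type I cells under each of 15 settings, 128 of 159 against supporting cells under 15, 16 of 47 for age under 14 and 2 of 18 for double-rule cells under 10. These named genes include genes of the rules and genes chosen for their large differences in these same cells, so the counts are a description. Dropping the detection filter or adding less CPM ended no call of the main setting. The labels give no replicate numbers, so no replicate block was fitted. The comparisons of cell types were paired by batch, and P4 is 1 batch.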
